A study of Mus musculus with 2 samples.

Results

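The genes described here are the acute-phase genes Saa1, Saa2, Saa3, C3 and Hp, 5 of the 32285 genes counted in a single-cell RNA-Seq library of sorted bone cells. They were chosen by name, knowing from earlier results of these data that they were detected in the stromal or the neutrophil cells of the sort, so their levels in these cells are descriptions. Of the 5 genes, 3 (Saa1, Saa2 and Saa3) lie together on mouse chromosome 7 (GRCm38, GENCODE vM21). Saa3 spans chr7:46711998-46715700 on the minus strand, Saa1 chr7:46740497-46742980 on the minus strand and Saa2 chr7:46751790-46754313 on the plus strand. C3 lies at chr17:57203970-57228136 and Hp at chr8:109575128-109579172, both on the minus strand, and all are annotated as protein coding.

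Acute-phase proteins are plasma proteins whose production climbs during infection, injury and inflammation, mostly in the liver, in response to IL-6 and IL-1 acting through STAT3, C/EBP and NF-kB factors. Saa1 and Saa2 encode serum amyloid A proteins that ride on high-density lipoprotein, whereas mouse Saa3 is made largely outside the liver. C3 is the central protein of the complement cascade, and Hp encodes haptoglobin, which binds free hemoglobin and is also stored in neutrophil granules.

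Osteal macrophages (Omacs), the macrophages that line bone surfaces, were sorted by CD11b, F4/80 and CD68 from femurs and vertebrae of female BALB/c mice after removal of periosteum and digestion overnight. The marrow cavity of the femurs was washed out before digestion, and the paper describes no such step for vertebrae. Mice underwent ovariectomy (OVX), a model of estrogen loss and postmenopausal bone loss, or sham surgery at 10 weeks of age, and bones were taken 4 weeks later from 20 mice per condition. The cells of each condition made up 1 pool, carried a hashtag antibody of their own (hashtag 1 on OVX cells and hashtag 2 on sham cells) and went into the same droplet run, so no replicates exist and every interval below covers counting error only. Because each condition was a pool of mice sorted with the same gates, a difference between OVX and sham cannot be told apart from a difference between the 2 preparations.

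The library held 2349 barcodes with a median of 4387 UMIs (unique molecular identifiers, each 1 captured RNA molecule) and a range from 500 to 141565. HTODemux gave 1059 barcodes to OVX and 981 to sham, 78 passed the cutoff for both hashtags and 231 for neither. Clustering without the 5 genes gave 6 clusters. Each was named neutrophil-like, macrophage-like or stromal-like by markers, and no other name was open to it. The 1996 neutrophil-like cells formed 4 clusters and showed 17 of 19 neutrophil markers at 10 CPM (UMIs per 1000000) or more. The 143 macrophage-like cells, led by Pf4, Ppbp and H2-Aa, showed 9 of 14 macrophage markers at that level but also 18 of 19 neutrophil markers, so the sorted cells carried mostly neutrophil and not macrophage markers. The 210 stromal-like cells, led by Prg4 (lubricin) and Dcn (decorin), showed 13 of 14 stromal and 5 of 6 chondrocyte markers at 10 CPM or more, with a median of 19997 UMIs per cell against 3924 in the neutrophil-like cells. Prg4 (25948 CPM) and Dcn (16513 CPM) made up most of the stromal marker level there, and no other stromal marker passed 678.3 CPM. Among the 13, Col1a1 (17.0 CPM), Col3a1 (22.3 CPM) and Pdgfrb (12.2 CPM) were close to the cutoff of 10 CPM. The 5 chondrocyte markers stood between 607 and 1075 CPM, and chondrocyte-like cells were not separated from other cells here. The name stromal-like therefore does not tell chondrocytes from other connective tissue cells. The 5 hepatocyte markers summed to 5.48 CPM in stromal-like and 0.652 CPM in neutrophil-like cells, and of the 4 adipocyte markers Adipoq, Plin1 and Lep were at 0 UMIs in stromal-like cells, whereas Fabp4, a fatty acid binding protein, stood at 74.4 CPM there and at 1.21 CPM in neutrophil-like cells.

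All 12 stromal-like cells with Saa2 also had Saa1, as did 5 of 18 cells with Saa3, of which 10 held a single Saa3 UMI. With each cell drawn down to 5000 UMIs, 4 of 7 cells with Saa3 had Saa1, so this contrast depends on depth. The promoters are shown for comparison (RefSeq, GRCm38.p6, 250 bases before and 50 after the start site). Entries were found for 4 of the 5 genes. Capitals mark a match to the C/EBP letters TTGCNNAA or, in C3, the letters TATAAA. Both strands were searched, also for STAT (TTCNNNGAA) and NF-kB motifs, and these motifs were fixed after the sequences had been seen.
Saa1, chr7:46742931-46743230, minus strand: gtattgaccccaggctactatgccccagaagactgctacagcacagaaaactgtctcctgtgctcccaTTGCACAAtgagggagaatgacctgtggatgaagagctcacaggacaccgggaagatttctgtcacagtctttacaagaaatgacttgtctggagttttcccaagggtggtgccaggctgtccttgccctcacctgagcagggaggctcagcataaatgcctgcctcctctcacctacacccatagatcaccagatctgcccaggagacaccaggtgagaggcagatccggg
Saa2, chr7:46751583-46751882, plus strand: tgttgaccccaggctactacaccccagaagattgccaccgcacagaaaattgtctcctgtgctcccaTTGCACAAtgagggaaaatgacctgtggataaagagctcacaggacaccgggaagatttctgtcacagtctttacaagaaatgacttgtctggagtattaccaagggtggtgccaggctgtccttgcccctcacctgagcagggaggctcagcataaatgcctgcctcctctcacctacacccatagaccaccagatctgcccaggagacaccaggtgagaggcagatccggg
Saa3, chr7:46715627-46715926, minus strand: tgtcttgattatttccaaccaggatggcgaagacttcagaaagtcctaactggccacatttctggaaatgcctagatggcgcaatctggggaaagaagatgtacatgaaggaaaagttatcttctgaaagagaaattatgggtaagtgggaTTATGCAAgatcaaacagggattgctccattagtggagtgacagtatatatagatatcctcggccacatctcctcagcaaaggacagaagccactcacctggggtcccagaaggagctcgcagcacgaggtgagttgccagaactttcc
C3, chr17:57228087-57228386, minus strand: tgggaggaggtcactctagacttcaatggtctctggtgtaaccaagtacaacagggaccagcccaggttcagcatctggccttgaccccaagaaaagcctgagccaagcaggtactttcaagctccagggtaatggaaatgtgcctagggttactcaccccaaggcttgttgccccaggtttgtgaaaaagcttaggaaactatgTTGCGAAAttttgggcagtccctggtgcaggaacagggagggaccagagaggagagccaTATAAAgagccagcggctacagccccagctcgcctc

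All 4 promoters held 1 C/EBP match, at bases 69 to 76 in Saa1, 68 to 75 in Saa2, 152 to 159 in Saa3 (on the opposite strand) and 206 to 213 in C3, where base 251 is the start site. Among 32851 promoters of the same length, 10.8% held such a match. None of the 4 held a STAT or NF-kB match, which 8.30% and 8.46% of promoters held, and only C3 held TATAAA, present in 13.6% of promoters. In C3 these letters lay at bases 265 to 270, after the annotated start site, whereas a TATA box lies before the start used. The start site was not measured here. The Saa1 and Saa2 promoters were 95.3% identical and matched each other in every base of the C/EBP site, whereas Saa1 and Saa3 were 55.9% identical. The last 300 bases of the transcripts, where a 3′ kit reads, were 92.4% identical between Saa1 and Saa2 and 53.9% between Saa1 and Saa3. Reads of Saa1 and Saa2 could therefore be split or lost between these genes in the counting, which was not tested.

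The SAA genes were found mostly in the stromal-like cells. Saa1 stood at 726 CPM in stromal-like cells (95% Poisson interval 703 to 749, from 3973 UMIs) and at 1.96 CPM in neutrophil-like cells (21 UMIs), a ratio of 371 (242 to 600). Stromal-like cells, 210 of 2349 barcodes, held 99.4% of all Saa1 UMIs. Saa2 stood at 117 CPM (108 to 127) in stromal-like cells from 642 UMIs and at 0.279 CPM in neutrophil-like cells from 3 UMIs. Saa3 stood at 72.5 CPM (65.6 to 80.02) in stromal-like cells and at 2.14 CPM (1.36 to 3.21) in neutrophil-like cells, a ratio of 33.9 (22.2 to 54.0). Among 2159 genes at 100 CPM or more in either of these cell types, 49.6% were 2-fold or more higher in stromal-like cells and 28.1% in neutrophil-like cells. Saa4, the constitutive liver member of the family, had 0 UMIs in 2349 cells, which allows a share of cells with a UMI of up to 0.128%.

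**Figure D1:**
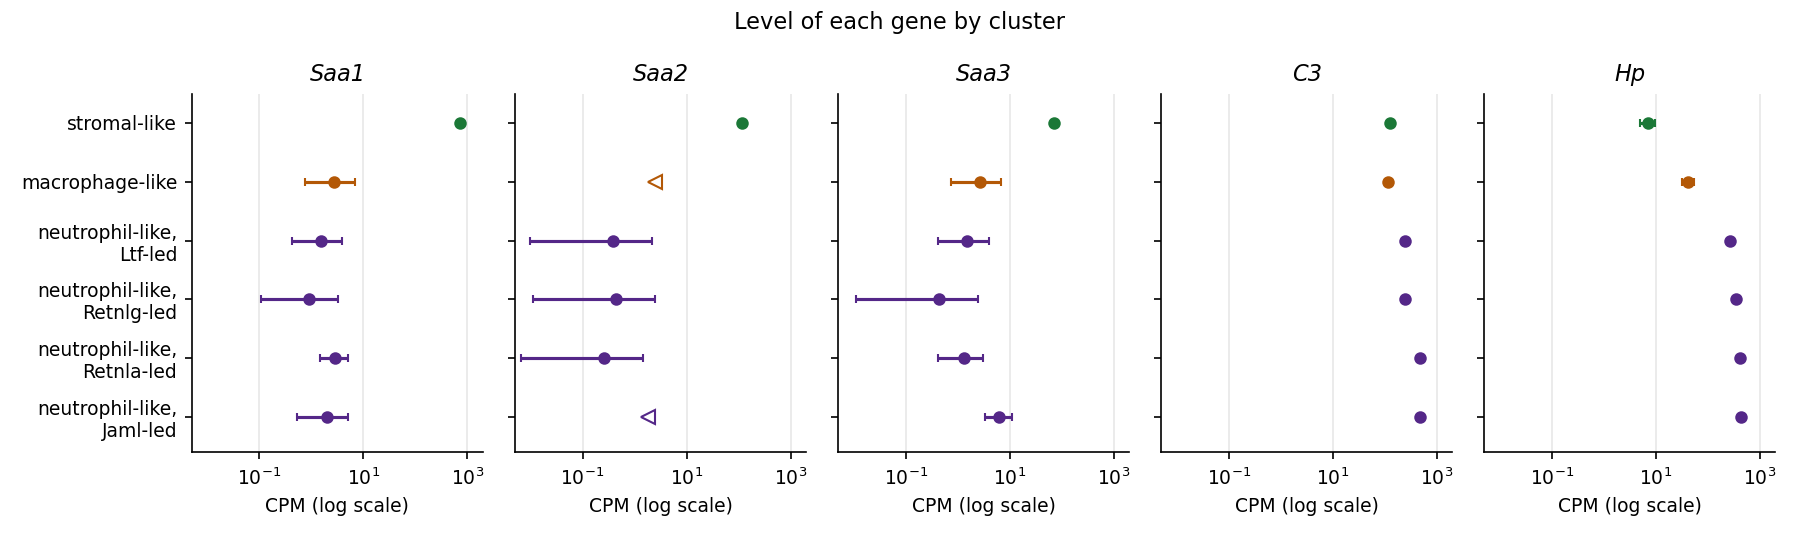
Level of each gene in the 6 clusters, as UMIs per 1000000 (CPM, log axis). Points are summed UMIs of the cluster, bars are 95% Poisson intervals, and open triangles are the upper limit where the count was 0. Saa1, Saa2 and Saa3 were highest in the stromal-like cluster (726, 117 and 72.5 CPM), Hp was lowest there (7.12 CPM), and C3 was above 100 CPM in each of the 6 clusters.

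The few SAA UMIs outside the stromal-like cells differed between the genes. For reference, the ratio of SAA to stromal marker UMIs was summed over the stromal-like cells, where a few cells dominate it. The 3 cells with the most UMIs of each gene held 62.7% for Saa1, 94.9% for Saa2 and 86.1% for Saa3. At that ratio neutrophil-like cells, with 2118 UMIs of the 14 stromal markers, would hold 34.8 Saa1 UMIs, and 21 were counted, each in a different cell. For Saa2 the same ratio gives 5.63 UMIs, and 3 were counted. For Saa3 it gives 3.48 UMIs, and 23 were counted, in 16 cells. Counts of Saa1 and Saa2 in neutrophil-like cells were therefore below those of the summed ratio, and the count of Saa3 was above. Whether these UMIs came from free stromal RNA was not tested. Of the 23 Saa3 UMIs, 13 fell in the Jaml-led cluster and 7 of those in a single OVX cell with 1187 neutrophil marker UMIs, 3 stromal marker UMIs and no UMI of Saa1 or Saa2 among its 5352 UMIs.

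Within the stromal-like cells, Saa1 was carried by a small number of cells. A Saa1 UMI was found in 42 of 210 cells (20%, exact binomial interval 14.8 to 26.1), and after thinning every cell to 1000 UMIs in 21 of 198 (10.6%, 6.69 to 15.8). In neutrophil-like cells the share was 1.05% unthinned, at a median of 3924 UMIs, and 0.269% after thinning. The 13 cells with 50 or more Saa1 UMIs held 95.2% of the stromal Saa1 UMIs, and the 3 cells with the most held 62.7%. The other SAA genes were narrower still. Saa2 was detected in 12 stromal-like cells, of which the top 3 held 94.9% of its UMIs, and Saa3 in 18 cells, of which the top 3 held 86.1%. Without the 3 cells with the most UMIs of each gene, the stromal level was 279 CPM for Saa1, 6.16 CPM for Saa2 and 10.4 CPM for Saa3.

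The same 3 cells ranked first for Saa1, and they also held the most Saa3. The cell with the most Saa1, an OVX cell, carried 1164 Saa1, 275 Saa2, 166 Saa3 and 61 C3 UMIs among 60718. The next, also OVX, carried 801 Saa1, 325 Saa2, 144 Saa3 and 7 C3 UMIs among 39999, so that Saa1 made up 20026 CPM of its RNA. The next after these, a sham cell, carried 525 Saa1, 9 Saa2, 32 Saa3 and 41 C3 UMIs among 64289. High Saa1 did not bring Saa2 and Saa3 along in a fixed proportion. Per 100 Saa1 UMIs, Saa2 stood at 23.6 and 40.6 in the 2 OVX cells, at 1.71 in the sham cell and between 0 and 4.50 in the cells ranked 4 to 10. Saa3 was at 0 in every one of the cells ranked 4 to 10, although they held from 77 to 273 Saa1 UMIs. In the reverse direction, the cell with the next most Saa3 (25 UMIs, neither hashtag) had 0 UMIs of Saa1, Saa2 and C3.

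**Figure D2:**
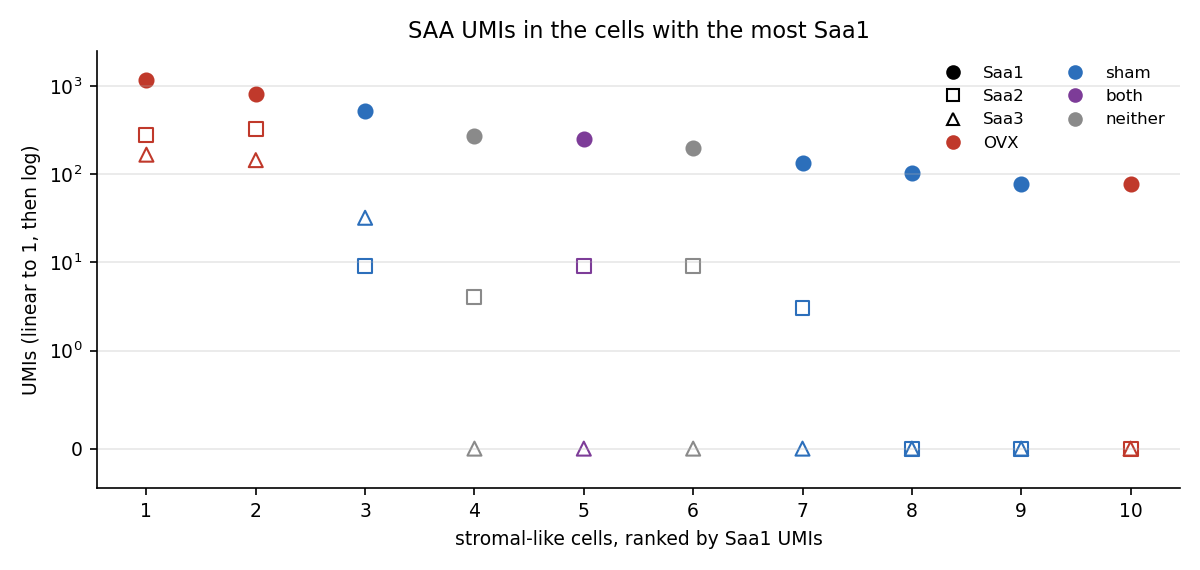
UMIs of Saa1 (filled circles), Saa2 (open squares) and Saa3 (open triangles) in the 10 stromal-like cells with the most Saa1 UMIs, ordered by rank (y axis linear to 1, then log). Colors give the hashtag class (red OVX, blue sham, purple both, grey neither), and only the first 3 cells, 2 OVX and 1 sham, held Saa3.

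Genes other than the SAA family set the same cells apart. The 20 cells with 10 or more Saa1 UMIs had a median of 27689 total UMIs, and the other 190 had a median of 19552. Chil1, a chitinase-like protein secreted by cartilage cells among others, had a median of 5686 CPM in the 20 cells and 23.0 CPM in the other 190. Cnmd, which encodes the cartilage glycoprotein chondromodulin, had medians of 392.1 and 0 CPM, and the cartilage regulator Sox9 of 1547 and 648 CPM. The chondrocyte marker Chad had medians of 755 and 55.1 CPM. The gaps were smaller for the chondrocyte markers Acan, with 806 and 484 CPM, and Col2a1, with 668 and 527 CPM. Prg4, the lubricant of joint surfaces, went the other way, with medians of 8397 and 19373 CPM. Dcn was similar, with medians of 18630 and 15750 CPM, and all of these ranges overlapped. Lcn2, which encodes the iron-siderophore binding protein lipocalin-2, had medians of 1792 and 176 CPM. The 2 groups of cells were formed by Saa1 itself and no test was made.

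Lcn2 and Camp (cathelicidin) are neutrophil granule genes, and S100a8 was taken as a reference for neutrophil RNA in the stromal droplets. S100a8 had similar medians in the 20 Saa1-high cells and the other 190, at 471 and 452 CPM. At the ratio to S100a8 summed over all neutrophil-like cells, the stromal-like cells would hold 107 Lcn2 and 42.9 Camp UMIs. They held 7991 and 1937, of which the 20 Saa1-high cells held 2811 and 1354. The cell with the most Saa1 alone held 840 Lcn2 and 556 Camp UMIs with 31 S100a8 UMIs, which would bring 0.834 and 0.334 UMIs. Camp was singled out after its values were seen, and the source of these Lcn2 and Camp UMIs was not tested.

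The next question was whether these genes differed between OVX and sham cells of the same source. Among stromal-like cells, HTODemux gave 38 to OVX and 54 to sham, and 112 (53.3%) passed the cutoff for neither hashtag. OVX cells held 1637 CPM of Saa1 (1568 to 1708) and sham cells 611 CPM (574 to 651), a ratio of 2.68 (2.48 to 2.89). For Saa2, OVX cells held 464 CPM and sham cells 8.73 CPM, a ratio of 53.2 (31.4 to 97.8). For Saa3 these levels were 246 and 26.8 CPM, a ratio of 9.16 (6.65 to 12.9). These 3 genes were past 2-fold, as were 1.45% of the 1725 genes that reached 100 CPM in OVX or sham cells, whereas C3 was not and Hp stayed under 100 CPM. The median log2 ratio of the 1725 genes was -0.08.

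These ratios rested on 2 cells. Leaving out the 2 stromal-like cells with the most UMIs of each gene, both OVX by HTODemux, gave ratios of 0.210 for Saa1, 0.0959 for Saa2 and 0.2499 for Saa3. This took the highest cells from OVX alone. The top sham cell stayed in, with 525 of 980 sham Saa1 UMIs and 32 of 43 sham Saa3 UMIs, and sham Saa2 had 14 UMIs. The values under 1 therefore show the weight of the 2 OVX cells and not a direction in the other cells. The OVX label of 1 of the 2, the cell ranked next to the top for Saa1, depended on the hashtag rule: it held 554 UMIs of hashtag 1 and 208 of hashtag 2 (72.7% hashtag 1) and was given to neither condition by the 80% rule. That rule takes no account of unequal hashtag levels. Among stromal-like cells, hashtag 2 had a median of 310 UMIs in OVX cells and 310.5 in cells with neither. Hashtag 1 had a median of 73 UMIs in sham cells. The number of cells with Saa1 did not follow the ratio. A UMI was found in 34.2% of the 38 OVX cells (13 cells, 19.6 to 51.4) and, among 54 sham cells, in 22.2% (12 cells, 12.04 to 35.6). There were 10 or more UMIs in 5 OVX and 6 sham cells, and 50 or more in 3 OVX and 6 sham cells. After thinning to 5000 UMIs, a Saa1 UMI was left in 8 of 37 cells for OVX (21.6%, 9.83 to 38.2) and in 9 of 51 for sham (17.6%, 8.40 to 30.9). The median cell of either condition had 0 CPM of each SAA gene. The cells with neither hashtag also held Saa1, at 260 CPM (240 to 281), with a UMI in 15 of 112.

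**Figure D3:**
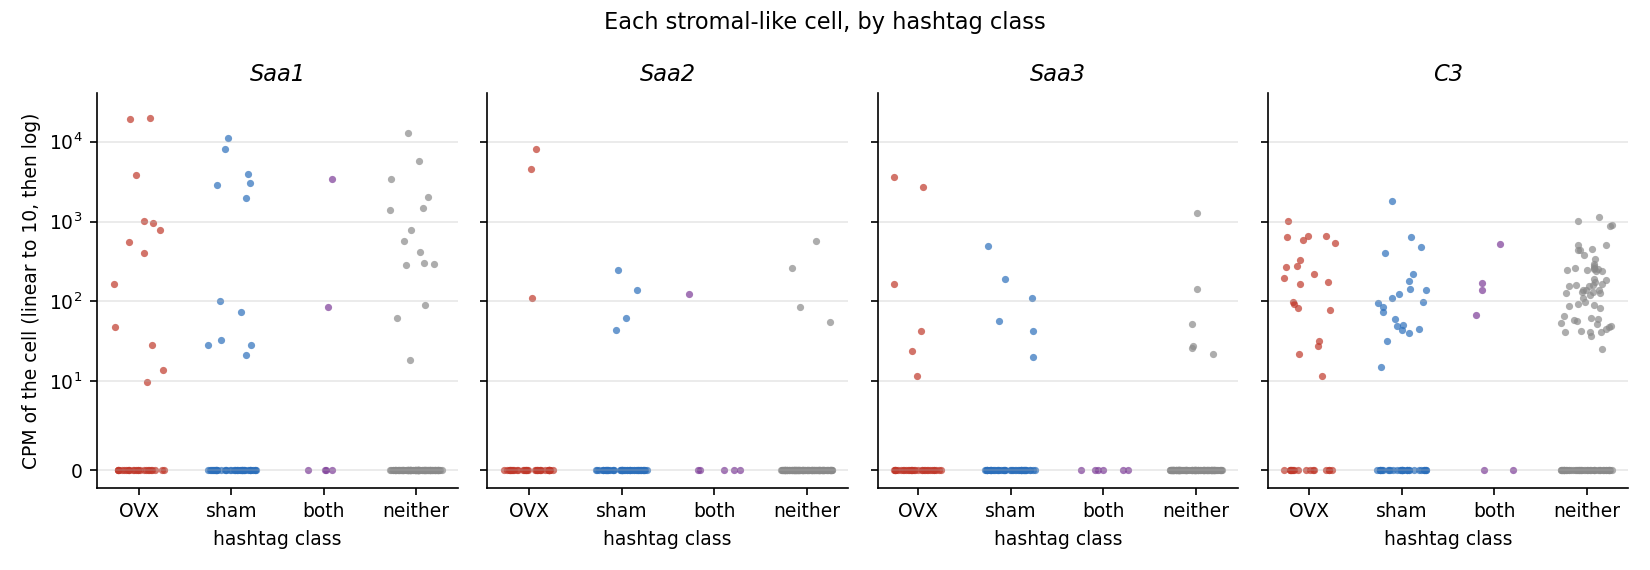
CPM of Saa1, Saa2, Saa3 and C3 in each of the 210 stromal-like cells by hashtag class (y axis linear to 10, then log; each point is 1 cell). Most cells sat at 0 for the SAA genes in each class, and the 2 OVX cells at the top of the Saa1, Saa2 and Saa3 panels are the same cells.

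C3 was spread over more stromal-like cells than the SAA genes. It stood at 124 CPM (115 to 133, 677 UMIs), with a UMI in 106 of 210 cells (50.5%) and 24.2% of its UMIs in the top 3 cells. At the ratio of C3 to neutrophil markers seen in neutrophil-like cells, the stromal-like cells would hold 26.6 C3 UMIs. This value is raised by Lcn2 and Camp, which held 7991 and 1937 of the 21510 neutrophil marker UMIs there. Both were far above their ratio to S100a8. OVX stromal-like cells held 134 CPM of C3 (115 to 156) and sham cells 102 CPM (86.7 to 119), a ratio of 1.32 (1.06 to 1.65). This direction did not hold with the other hashtag rule (80% or more of at least 10 hashtag UMIs), which gave 0.922 with 28 OVX and 113 sham cells. HTODemux gave 54 stromal-like cells to sham and 112 to neither, and the added sham cells came mostly from the latter. Those 112 had a median of 310.5 hashtag 2 UMIs, against 310 in OVX cells, so the value is not an independent check of direction. The cell with the most C3 UMIs (62 of 163 sham UMIs) held no SAA UMI, and without it the ratio was 2.09. An OVX cell with 61 of 174 OVX UMIs stayed in. That value therefore shows the weight of 1 sham cell and not a stronger difference in the other cells. Hp was low in stromal-like cells, at 7.12 CPM from 39 UMIs. The ratio to the same neutrophil markers gives 26.2 UMIs, a value that Lcn2 and Camp raise as well. The Hp ratio of OVX to sham was 0.953 (0.374 to 2.35) from 10 and 13 UMIs.

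Hp and C3 were the neutrophil members. Hp stood at 364 CPM (352 to 375) in neutrophil-like cells, 51.0 times (37.3 to 71.9) the stromal level, and 97.5% of its UMIs lay there. C3 stood at 370 CPM (358 to 381), 2.99 times (2.75 to 3.25) the stromal level. Both were broad: a UMI was found in 60.5% of neutrophil-like cells for C3 and 54.5% for Hp, and the top 3 cells held 2.65% and 2.23% of the UMIs. In macrophage-like cells C3 stood at 118 CPM (101 to 136) and Hp at 41.4 CPM (31.7 to 53.2). The neutrophil marker ratio pooled over all neutrophil-like cells gives 123 and 121 CPM. That ratio differed between clusters. Per 100 neutrophil marker UMIs, C3 ran from 0.0650 in the Ltf-led to 0.270 in the Jaml-led cluster, with 0.118 in macrophage-like cells. Hp ran from 0.0686 to 0.243 in the same clusters, with 0.0416 in macrophage-like cells. The source of these UMIs was not tested. C3 and Hp were both 2-fold or more under the neutrophil-like level, with ratios of 0.318 for C3 and 0.114 for Hp, as were 311 of the 1727 genes counted, while 36.7% were higher.

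The 4 neutrophil-like clusters were led by Ltf (with Camp and Ngp, like Ltf secondary granule genes), Retnlg, Retnla and Jaml. C3 stood at 248 CPM (229 to 268) in the Ltf-led, 240 CPM (220 to 261) in the Retnlg-led, 467 CPM (446 to 490) in the Retnla-led and 483 CPM (454 to 514) in the Jaml-led cluster. The intervals of the first 2 clusters overlapped, as did those of the last 2. Hp stood at 261 CPM (242 to 282), 340 CPM (317 to 365), 408 CPM (388 to 429) and 436 CPM (408 to 465) in the same order, and here the intervals of the Retnla-led and Jaml-led clusters overlapped. This order was that of both conditions pooled and did not hold among sham cells. Sham C3 was at 259 CPM (232 to 289) in the Ltf-led, 212 CPM (188 to 237) in the Retnlg-led, 153 CPM (118 to 195) in the Retnla-led and 254 CPM (221 to 291) in the Jaml-led cluster. Sham Hp was at 228, 254, 181 and 178 CPM in the same order. Among OVX cells C3 was lowest in the Ltf-led cluster, with 236 CPM against 337, 508 and 653 CPM, as was Hp, with 309 CPM against 527, 444 and 625 CPM. The largest pooled ratio to the Ltf-led cluster was 1.95 (1.76 to 2.16), for C3 in the Jaml-led cluster, so none reached 2-fold, whereas 28.8% of genes did in that cluster, 11.8% in the Retnla-led and 11.5% in the Retnlg-led cluster. Genes lower by 2-fold made up 14.3%, 12.8% and 10.5%. Condition moved with these clusters, since 426 of 551 Retnla-led cells were OVX and 322 of 497 Retnlg-led cells were sham, so values within each cluster are also given.

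Within neutrophil-like cells, OVX cells held 473 CPM of C3 (456 to 491) and sham cells 230 CPM (215 to 245), a ratio of 2.06 (1.91 to 2.22). For Hp these levels were 465 CPM (448 to 482) and 222 CPM (208 to 237), a ratio of 2.09 (1.94 to 2.26). Both genes were past 2-fold, as were 2.58% of the 1278 genes that reached 100 CPM in OVX or sham cells, while 0.861% were lower by as much, and the median log2 ratio of those genes was -0.08. Unlike the SAA ratios these were carried by many cells. With every cell thinned to 1000 UMIs, the share with a C3 UMI was 35.3% (32.2 to 38.5) in OVX and 17.4% (14.8 to 20.3) in sham, and the share with a Hp UMI was 32.4% (29.4 to 35.5) and 18.1% (15.4 to 21.0). The median OVX cell had 381 CPM of C3 and 272 CPM of Hp, and the median sham cell had 0 CPM of each. These medians were taken without thinning, at a median depth of 4544 UMIs in OVX and 3429 in sham cells. At such depth a median of 0 does not show that the genes were absent from sham cells.

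By cluster, the ratio of C3 differed. In the Ltf-led cluster OVX cells held 236 CPM and sham cells 259 CPM, a ratio of 0.912 (0.768 to 1.08). The ratio was 1.59 (1.33 to 1.90) in the Retnlg-led, 2.57 (2.20 to 3.005) in the Jaml-led and 3.33 (2.59 to 4.34) in the Retnla-led cluster. Hp was higher in OVX in every cluster, with ratios of 1.36 (1.15 to 1.60) in the Ltf-led, 2.07 (1.78 to 2.41) in the Retnlg-led, 2.45 (1.94 to 3.13) in the Retnla-led and 3.51 (2.93 to 4.21) in the Jaml-led cluster. C3 and Hp were both past 2-fold in the Retnla-led and Jaml-led clusters, where 5.71% and 3.56% of genes were, Hp alone in the Retnlg-led (1.52%) and neither in the Ltf-led cluster (0.862%). Genes lower by as much made up 3.62%, 1.26%, 1.28% and 1.29% in the same order. Depth moved with condition in the Retnla-led cluster, where OVX cells had a median of 6081 UMIs and the 92 sham cells 2182, and its part in these ratios was not tested. In the Ltf-led cluster the medians were 8041 and 7804. In macrophage-like cells the ratios were 1.70 (1.23 to 2.33) for C3 and 2.23 (1.28 to 3.90) for Hp. C3 was not past 2-fold there and Hp was under 100 CPM, and of the genes counted 3.61% were 2-fold higher in OVX and 3.55% lower. C3 and Hp shared somewhat more neutrophil-like cells than independent detection gives with all hashtag classes pooled. Both genes were detected in a larger share of OVX than of sham cells. That alone raises the number of shared cells, and its part was not tested. The Jaccard coefficient (cells with both over cells with either) was 0.190 (0.164 to 0.219) against 0.150 in 1860 cells thinned to 1000 UMIs, and 0.530 (0.504 to 0.556) against 0.402 unthinned. In 783 cells thinned to 5000 UMIs it was 0.564 (0.526 to 0.601) against 0.527, an interval that reaches just below the independent value.

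**Figure D4:**
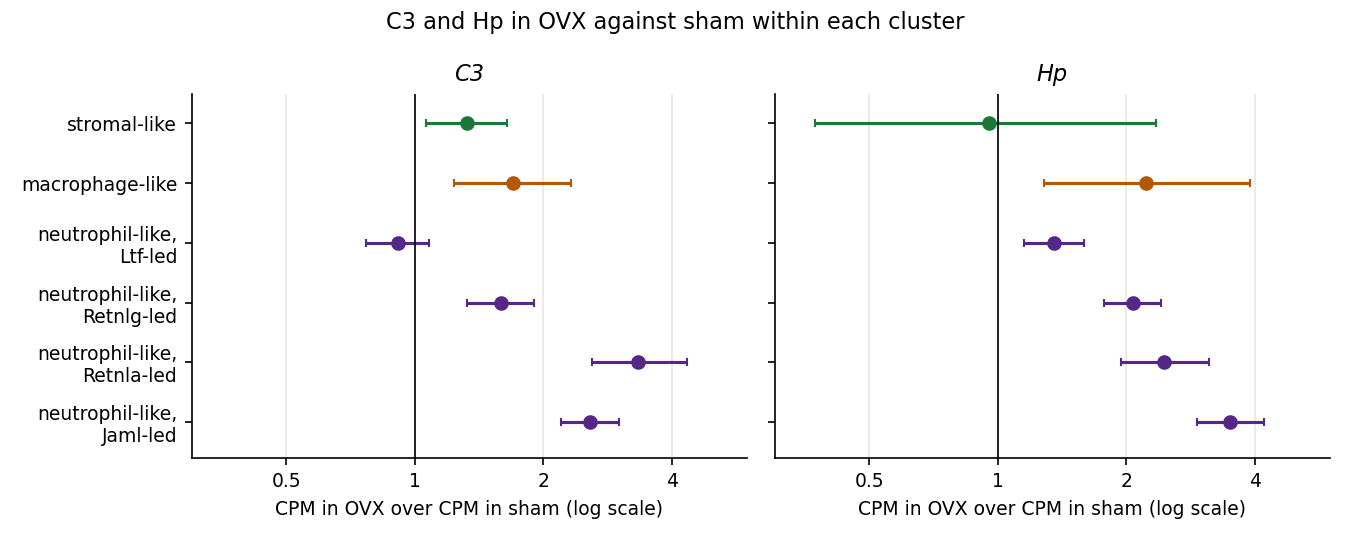
OVX level divided by sham level, both in CPM (log axis, line at 1), for C3 and Hp within each cluster, with exact 95% intervals for counting error. The neutrophil-like ratios of C3 run from 0.912 in the Ltf-led to 3.33 in the Retnla-led cluster, and those of Hp from 1.36 to 3.51.

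In stromal-like cells Saa1 was found together with Saa2 and with C3 more often than independent detection gives. In 181 cells thinned to 5000 UMIs, all 5 cells with Saa2 also had Saa1 (of 28 cells), a Jaccard coefficient of 0.179 (0.0606 to 0.369) against 0.0240. Saa1 and C3 shared 16 cells, 0.246 (0.148 to 0.369) against 0.113. In 198 cells thinned to 1000 UMIs, the interval of this pair, 0.132 (0.0441 to 0.281), covered the independent value of 0.0574. Saa1 and Saa3 shared 4 cells of the 7 with Saa3, 0.129 (0.0363 to 0.298) against 0.0319. Without thinning, however, their coefficient of 0.0909 (0.0302 to 0.1995) covered the independent value of 0.0638. Hp was left in only 5 of the 181 cells, none with Saa1, and unthinned 5 cells held both, 0.0725 (0.0239 to 0.161) against 0.0947. Without thinning, 12 of 12 cells with Saa2 had Saa1 but 5 of 18 cells with Saa3 did, and 155 of 210 cells held no SAA UMI.

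The genes most like each member across the 210 stromal-like cells were named by Spearman correlation among up to 1554 genes at 100 CPM or more, as a description of cells that share a library and differ in depth. Saa1 was most like Saa2 (rho 0.565), Cnmd (0.448) and Chil1 (0.432), against a median of 0.0399 over genes and 0.165 with total UMIs. After thinning to 5000 UMIs these were 0.447, 0.407 and 0.472. Saa2 followed Saa1, then Aldh1a3, a retinoic acid synthesis enzyme (0.375), and the keratin Krt17 (0.342). For C3 the leading genes were the matrix proteoglycan Prelp (0.464), the helicase Dhx32 (0.450) and the axial skeleton factor Pax1 (0.435), which fell to 0.245, 0.192 and 0.301 after thinning. Saa3 led with Tmem258 (0.223), Arhgap5 (0.214) and Ccar1 (0.203) and Hp with Chd4 (0.346), Plec (0.293) and Phf10 (0.289). Those correlations are close to the correlation with total UMIs (0.227 for Saa3 and 0.339 for Hp), so nothing is read from them. After thinning, C3 was most like Id2 (0.399), Gsn (0.370) and Clu (0.363), and Saa3 was most like Saa2 (0.499), Camp (0.299) and Saa1 (0.261). The Saa3 values rest on few cells, since 7 of 181 held Saa3, 5 held Saa2 and 3 held both. Without thinning, Saa3 had a rho of 0.167 with Saa2 and 0.0877 with Saa1.

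The wider pathway is given from fixed lists, by CPM of 3′ UMIs, which count 1 end per transcript. Of 31 other acute-phase genes, 21 had a UMI, and 9 reached 100 CPM in stromal-like or neutrophil-like cells, of which 6 were 2-fold or more higher in stromal-like and 2 in neutrophil-like cells (median log2 ratio 5.83). Over the 2159 genes these shares were 49.6% and 28.1%, with a median log2 ratio of 0.96, and they are the background of the lists that follow. The highest by source were Lcn2 (1460 CPM in stromal-like, 3024 in neutrophil-like and 1351 in macrophage-like cells), the endotoxin co-receptor Cd14 (686, 996 and 905 CPM), the metallothionein Mt2 in stromal-like cells (534 CPM) and the IL-1 receptor antagonist Il1rn in neutrophil-like and macrophage-like cells (1021 and 272 CPM). Lcn2 went opposite ways, with 2612 CPM in OVX against 950 CPM in sham stromal-like cells (ratio 2.75, 2.59 to 2.92) and with 2370 against 3798 CPM in neutrophil-like cells (0.624, 0.610 to 0.638). Without the 2 cells with the most Saa1 its stromal ratio was 1.96, and without the 3 cells with the most Lcn2 it was 1.47. Past 2-fold in OVX against sham were 1 of 8 acute-phase genes higher (Lcn2) and 1 lower (Serpina1b) in stromal-like cells, where 1.45% of genes were higher and 1.28% lower. In neutrophil-like cells 0 of 3 were, where 2.58% of genes were higher and 0.861% lower.

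Of 19 cytokines and receptors that induce the response, 7 reached 100 CPM, 3 of them higher in stromal-like and 4 in neutrophil-like cells (median log2 ratio -3.96). The 3 stromal genes, a share near the 49.6% of all genes, belong to the IL-6 family, with Il11 at 2354 CPM against 23.3 CPM in neutrophil-like cells, the shared receptor chain Il6st at 158 against 3.07 CPM and Lif at 155 against 2.79 CPM. Osm of the same family was highest in macrophage-like cells (209 CPM, against 3.65 CPM in stromal-like cells). Of the IL-1 genes, Il1b stood at 290 CPM in neutrophil-like, 350 CPM in macrophage-like and 4.20 CPM in stromal-like cells, and the decoy receptor Il1r2 at 268 CPM and Il1rap at 170 CPM in neutrophil-like cells, whereas the signaling receptor Il1r1 stood at 51.7 CPM in stromal-like and 0.932 CPM in neutrophil-like cells (chosen after its values were seen). Tnfrsf1b stood at 73.4 CPM in macrophage-like cells. In stromal-like cells Lif was lower in OVX, with 78.0 CPM against 239 CPM (ratio 0.327, 0.260 to 0.408), and it was the only one of 3 genes past 2-fold there, with 0 of 6 in neutrophil-like cells. Over all genes, 1.45% were 2-fold higher in OVX and 1.28% lower in stromal-like cells, and 2.58% and 0.861% in neutrophil-like cells. Of 15 transcriptional regulators 7 reached 100 CPM, 4 higher in neutrophil-like and 0 in stromal-like cells (median log2 ratio -1.06), led by Cebpb (1430 and 239 CPM), Nfkbia (407 and 776 CPM) and Junb (602 and 529 CPM). None of the 4 in stromal-like or 7 in neutrophil-like cells passed 2-fold between OVX and sham, beside the same small shares of all genes.

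Apart from C3, complement was mostly a matter of receptors. Of 27 genes 21 had a UMI and 5 reached 100 CPM, 1 higher in stromal-like and 4 in neutrophil-like cells (median log2 ratio -6.00), where all genes gave 49.6% and 28.1%. The highest were the C3 receptor subunit Itgam (1830 CPM), the C5a receptor C5ar1 (410 CPM) and Itgb2 (375 CPM) in neutrophil-like cells, Itgam (928 CPM), Itgb2 (267 CPM) and properdin, Cfp (251 CPM), in macrophage-like cells, and the complement regulator Cr1l (203 CPM), factor B, Cfb (40.4 CPM), and C4b (29.4 CPM) in stromal-like cells. Cfp, which stabilizes the C3 convertase, was the only one of 4 genes past 2-fold between conditions in neutrophil-like cells, with 257 CPM against 113 CPM in sham (ratio 2.27, 2.04 to 2.53), where 2.58% of all genes were. In stromal-like cells 0 of 1 passed, where 1.45% of all genes were higher and 1.28% lower. Of 12 receptors and carriers of SAA and haptoglobin, 11 had a UMI and the haptoglobin-hemoglobin receptor Cd163 had none. Of these 4 reached 100 CPM, 1 higher in stromal-like and 3 in neutrophil-like cells (median log2 ratio -5.48), and 0 passed 2-fold between conditions in either source. The shares of all genes past 2-fold between conditions were 1.45% and 1.28% in stromal-like and 2.58% and 0.861% in neutrophil-like cells, higher and lower. The SAA receptor Fpr2 stood at 717 CPM in neutrophil-like and 5.30 CPM in stromal-like cells, with Fpr1 at 232 CPM and Tlr4 at 190 CPM in neutrophil-like cells, Apoe at 192 CPM, Tlr2 at 40.9 CPM and Scarb1 at 10.1 CPM in stromal-like cells, and the cholesterol transporter Abca1 at 178 CPM, Fpr2 at 167 CPM and Cd36 at 156 CPM in macrophage-like cells.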

How the data were processed

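Sorted Omacs of 1 OVX and 1 sham pool were run in 1 droplet reaction with a 10x 3′ kit. The authors aligned reads to mm10 with Cell Ranger (6.0.0 in the header of the counts, 6.0.1 in the submitters' processing notes) and deposited raw UMI counts (whole numbers) of each gene and hashtag in the barcodes called as cells. The 5 genes and all lists were chosen with earlier results of these data known.

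Condition came from the hashtag counts alone (HTODemux, Seurat 5.3.0, R 4.3.3, positive quantile 0.99), and cells with both hashtags or neither were left out of OVX against sham. No doublet caller was run. Clustering (scanpy 1.11.5, Louvain of igraph 0.11.9, Python 3.11.15) used counts scaled to 10000 per cell, 2000 variable genes less the members among them (1997), 30 components, 15 neighbors and the lowest resolution giving 6 clusters of at least 10 cells. Steps of 0.05 gave none, so steps of 0.01 were used (resolution 0.31). Clusters were named from 14 stromal, 19 neutrophil and 14 macrophage markers.

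Levels are summed UMIs scaled to 1000000 (CPM) with exact 95% Poisson intervals. Ratios have exact conditional binomial intervals and shares of cells Clopper-Pearson intervals, some after thinning to a fixed depth. A count of 0 was given a limit of 3 counts. With 1 pool per condition no p-value was made, and a ratio was counted as past the threshold at 2-fold or more with 100 CPM in either group. Genes named are the 5 members, the 3 highest of each fixed list in each source, the 3 most correlated with each member, fixed markers, and list genes past 2-fold. Camp, Chil1 and S100a8 were followed through single cells, and cells grouped by Saa1 UMIs, after values were seen. Calculations were tested on simulated data. Alternatives included Leiden clustering (leidenalg 0.10.2), 30 neighbors, 1000 variable genes, members kept for clustering, a barcode filter (at least 500 genes, at most 10% mitochondrial UMIs), a stromal marker rule and another hashtag rule. Leaving out the 1 or 2 cells with the most UMIs was added after seeing the data.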

Additional observations from a re-analysis of the deposited data

Results flagged for a closer look

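Some ratios of OVX to sham pointed in opposite directions in different cells, with 1 pool per condition and no test of the difference. C3 was at 0.912 in the Ltf-led neutrophil-like cluster and above 1 in the other clusters, and Hp was at 0.953 in stromal-like cells, from 23 UMIs, and above 1 in the other cells. The intervals of both values under 1, given above, also covered 1, so neither shows a direction. Among the list genes, stromal-like and neutrophil-like cells differed in direction for Lcn2 (2.75 and 0.624), Itgam (1.71 and 0.866), Nfkbia (0.906 and 1.33) and Junb (0.856 and 1.31). The source of the Itgam UMIs in stromal-like cells was not tested.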

How the results depend on the processing

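The stromal-like cells were the same 210 cells with Leiden clustering, 30 neighbors or the members kept, and 209 with 1000 variable genes. The barcode filter and the stromal marker rule kept all results they were applied to within their intervals. Without the 3 cells with the most UMIs, the OVX to sham ratio turned to 0.434 for Saa1, 0.0959 for Saa2 and 0.938 for Saa3 and was 2.30 for C3 in stromal-like cells, and the stromal level was 279 CPM for Saa1, 6.16 for Saa2, 10.4 for Saa3 and 96.5 for C3. In neutrophil-like cells it left Saa2 at 0 and Saa3 at 1.22 CPM. Without the top cell the ratios were 1.27, 25.2, 4.59 and 2.09 for Saa1, Saa2, Saa3 and C3, and without the top 2 they were 0.210, 0.0959 and 0.2499 for the SAA genes. For Saa2 the next most after the top 2 was 9 UMIs, held alike by a sham cell, a cell with both hashtags and a cell with neither. The Saa2 ratio without 3 cells equals that without 2 and is no further check. For C3 the top cell was sham, the next OVX and the one after sham. The C3 values of 2.09 and 2.30 thus took more UMIs from sham than from OVX. The hashtag share rule, which counts as sham many cells that HTODemux gave to neither, gave 2.97 for Saa1 and turned C3 to 0.922. Under it the cell with 1164 Saa1 UMIs stayed OVX and the next, with 801, went to neither. The value of 2.97 therefore rested mostly on 1 cell and is not an independent check. Equal weight per cell gave ratios of 2.135 for Saa1 and 1.77 for C3 in stromal-like and 2.28 for C3 in neutrophil-like cells, and levels of 530, 68.3 and 43.0 CPM for Saa1, Saa2 and Saa3 in stromal-like cells and of 3.18 CPM for Saa1 and 343 CPM for Hp in neutrophil-like cells. With the members kept for clustering, neutrophil-like C3 was 349 and Hp 339 CPM, and Hp was 350, 350 and 351 CPM with Leiden, 30 neighbors and 1000 variable genes. The neutrophil-like cells went from 1996 to 2077 with the members kept and to 2021, 2023 and 2018 with these 3. The macrophage-like cells went from 143 to 62 and to 118, 116 and 122, in the same order. The macrophage-like values above are therefore those of the main clustering alone. The part of these moves in the levels was not tested. By construction, shares of cells follow depth. Unthinned they were 20%, 5.71%, 8.57%, 50.5% and 15.2% for Saa1, Saa2, Saa3, C3 and Hp in stromal-like cells and 1.05%, 0.802%, 60.5% and 54.5% for Saa1, Saa3, C3 and Hp in neutrophil-like cells. At 500 UMIs, C3 was at 6.19% and 15.4% in these cells and Hp at 14.2% in neutrophil-like cells. At 1000 UMIs the Jaccard coefficients of C3 with Saa1 and Saa2 were 0.132 (0.0441 to 0.281) and 0 (0 to 0.137). Both intervals covered the independent values of 0.0574 and 0.0135. Per 100 Dcn UMIs, neutrophil-like cells held 2.12 Saa1, 2.32 Saa3, 400.3 C3 and 394 Hp UMIs, against 0.992, 1.09, 187 and 184 per 100 UMIs of the 14 stromal markers. No paired analysis was possible because each condition was 1 pool and no test was made. With 38 OVX and 54 sham stromal-like cells, a few cells decide a sum, and the few Saa1 and Saa2 UMIs in neutrophil-like cells cannot be told apart from free RNA.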

Other observations

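Some other genes of the acute-phase list were also higher in stromal-like cells. Cp (ceruloplasmin) stood at 278 CPM in stromal-like and 1.49 CPM in neutrophil-like cells, Lbp (the endotoxin binding protein) at 161 and 3.26 CPM, Serpina1a at 157 and 2.05 CPM and Serpina1b at 107 and 1.12 CPM. Serpina1b was lower in OVX than in sham stromal-like cells, at 84.2 and 225 CPM (ratio 0.374, 0.299 to 0.465). These were chosen after their values were seen. Among stromal-like cells, Camp was higher in OVX by a ratio of 5.93, and by 1.48 without the 2 cells with the most Saa1, whereas Chil1 changed from 1.87 to 0.685 on leaving out those cells.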
